A study of Homo sapiens with 14 samples.

Results

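The genes of sterol and fatty acid synthesis that are driven by the sterol regulatory element binding proteins (SREBPs) were followed in A375 cells, a human melanoma line, across an allelic series of ZC3H18 (Z18). The set holds 29 genes, chosen by symbol for their place in the pathway, out of 28307 gene symbols in the files, and all 29 were found and passed the filter on low values in every fit. PolyA-selected RNA had been sequenced from 14 libraries. In bulk, cells had been transfected transiently with a Cas9 vector and selected with puromycin, and carried either a guide RNA against Z18 (bulk Z18 CRISPR, n = 3) or no guide (bulk control, n = 3). Clones obtained by limiting dilution carried a truncating Z18 allele beside a WT allele (trunc/+, n = 3), a loss-of-function allele beside a WT allele (-/+, n = 3), or no Z18 mutation (WT, n = 2, from cells given Cas9 without a guide). The bulk Z18 CRISPR populations are mixtures of edited and unedited cells, while the bulk controls, given no guide, are unedited. Each clone descends from a single cell and was sequenced as 1 library, and the 3 trunc/+ clones do not carry the same truncating mutation. P-values measure the spread between these libraries, which for the bulk triplicates may be partly technical.

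Sterol synthesis runs from acetyl-CoA through mevalonate and squalene to lanosterol, which a chain of enzymes then turns into cholesterol. Fatty acid synthesis starts from the same acetyl-CoA and ends with elongation and desaturation. When membrane sterol is low, the SREBPs leave the endoplasmic reticulum, are cut in the Golgi and switch these genes on, while INSIG proteins hold them back when sterol is plentiful. Proliferating tumour cells are known to draw on both arms for membrane.

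The libraries held 15615675 to 33018360 aligned fragments, and 10951 to 12159 symbols reached 1 FPKM (fragments scaled to transcript length and to the mapped fragments of the library). Z18 itself, on chromosome 16 (hg38, 88570403 to 88631964), had 10.4, 11.9 and 12.8 FPKM in bulk Z18 CRISPR, against 13.9, 38.1 and 48.7 FPKM in bulk control. It had 8.70, 14 and 14.3 FPKM in trunc/+, 16.1, 16.2 and 17.1 FPKM in -/+ and 22.0 and 23.5 FPKM in WT. These Z18 values are in ascending order within each group, not by library number. Every mutant clone thus lay below both WT clones, while bulk control 2, at 13.9 FPKM, lay next to the edited pools. That library also had the fewest symbols at 1 FPKM, and its FPKM values summed to 641536 against 438308 to 510822 in the other 13. The bulk controls varied most over the lipid genes, with a median SD on the log2(FPKM + 1) scale of 0.542. It was 0.129 in bulk Z18 CRISPR, 0.193 in trunc/+, 0.225 in -/+ and 0.215 in WT. Over all genes tested the bulk controls also varied most, at 0.435, against 0.138, 0.236, 0.228 and 0.157 in those groups. Of the melanocyte lineage markers checked, SOX10 had at least 10.8 FPKM in every library, while MLANA and TYR, which serve pigment production, were listed at 0 in all of them. A difference in bulk RNA cannot tell fewer cells of a kind from less RNA per cell.

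Across the groups the 29 genes spanned a wide range of levels, and since FPKM is per transcript length these can be compared between genes. FDPS, which makes farnesyl diphosphate, had the highest mean of the 5 group means at 128 FPKM, followed by the stearoyl-CoA desaturase gene SCD (109 FPKM), the ATP-citrate lyase gene ACLY (75.6 FPKM) and the squalene synthase gene FDFT1 (72.2 FPKM). The sterol reductase gene TM7SF2 was lowest at 1.41 FPKM, below the sterol desaturase gene SC5D at 4.93 FPKM. LSS, which closes squalene into lanosterol, varied most between libraries, with a 16.5-fold span, followed by the fatty acid synthase gene FASN with an 11.3-fold span. ACAT2, at the head of the mevalonate arm, varied least, with a 1.78-fold span. Per-base read coverage fell as low as 2.04 for SC5D, 3.69 for LSS and 4.47 for the desaturase gene FADS2 in a library, so single values of these genes are the least precise.

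No member of the set passed an adjusted p of 0.05 in any of the 4 comparisons of Z18 genotypes. By contrast, 15 of the 29 were lower in the 6 bulk libraries than in the 8 clones and none was higher, a comparison added after the data had been seen. Over all 13439 genes tested there, 2863 (21.3%) were lower and 1948 were higher. The heat map of the members by library shows the low levels of regulators and fatty acid genes in the bulk columns and the spread among the bulk controls.

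**Figure D1:**
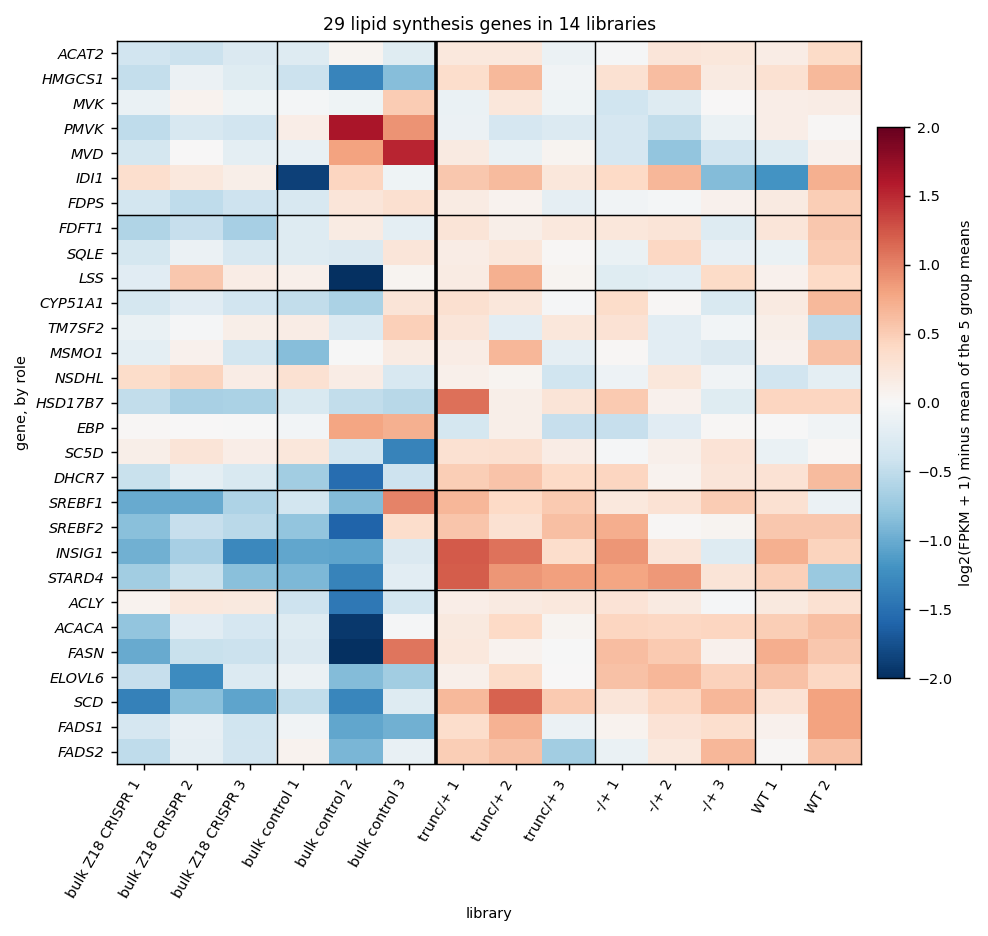
Heat map of 29 lipid synthesis genes (rows, by role) in 14 libraries (columns; the thick line parts bulk libraries from clones); colour is log2(FPKM + 1) minus the mean of the 5 group means. INSIG1, STARD4, SCD and SREBF2 are low (blue) in most bulk libraries and high in most clones, and bulk control 2 is the lowest of the 14 libraries for 11 genes (17 in TPM).

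In bulk, the question was whether editing Z18 changed the pathway. PMVK, which phosphorylates phosphomevalonate, had the largest decrease of the set, and ACLY, which supplies cytosolic acetyl-CoA, the largest increase, yet neither passed the adjusted threshold. With limma, 0 of 29 members were called, while 42 of 12114 genes tested were called, a background of 0.347%. At an unadjusted p under 0.05, 1 member was higher and 3 were lower, where 20.9% of all genes passed. The median log2 fold change (log2FC) of the members was -0.11, against 0.18 over all genes. With TPM, which rescales each library to the same total, the medians were -0.01 against 0.30, and after quantile scaling -0.23 against 0.03. Without bulk control 3 the median of the members turned to 0.07, against 0.21 over all genes.

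PMVK had 32.4, 37.1 and 35.6 FPKM in bulk Z18 CRISPR, against 51.0, 146 and 87.5 FPKM in bulk control. The groups did not overlap, but the controls were far apart among themselves (log2FC -1.29 ± 0.35 SE, adjusted p = 0.139). MVD, which decarboxylates mevalonate diphosphate, had 9.46, 12.4 and 10.6 FPKM in bulk Z18 CRISPR, against 11.1, 22.1 and 37.3 FPKM in bulk control (log2FC -0.90 ± 0.39 SE, adjusted p = 0.239). Its highest value was in bulk control 3, and bulk control 1 lay within the edited range. MVD lies 19975 bases from the end of Z18 on the opposite strand of chromosome 16 (88651940 to 88663091), with CYBA and IL17C between them. Whether this position bears on the MVD values was not tested. IDI1, which isomerises isopentenyl diphosphate, had 24.6, 22.3 and 20.9 FPKM in bulk Z18 CRISPR, against 4.58, 26.2 and 18 FPKM in bulk control (log2FC 0.73 ± 0.52 SE, adjusted p = 0.424). Bulk control 1 was far below the other 5 libraries, and in TPM all 3 edited pools lay above all 3 controls.

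Past squalene, LSS had 6.26, 11.4 and 8.43 FPKM in bulk Z18 CRISPR, against 8.16, 0.781 and 7.87 FPKM in bulk control (log2FC 0.85 ± 0.60 SE, adjusted p = 0.418). Here bulk control 2 set the difference, and the other libraries of both groups overlapped. Among the regulators, SREBF1, which encodes the SREBP that favours fatty acid genes, had 10.4, 10.4 and 14 FPKM in bulk Z18 CRISPR, against 16.9, 11.7 and 44.8 FPKM in bulk control (log2FC -0.80 ± 0.44 SE, adjusted p = 0.316). SREBF2, whose product favours sterol genes, differed by 0.07 ± 0.45 (SE) on the log2 scale. In the fatty acid arm, ACLY had 76.9, 84.2 and 83.7 FPKM in bulk Z18 CRISPR, against 54.7, 26.3 and 56.3 FPKM in bulk control (log2FC 0.90 ± 0.30 SE, adjusted p = 0.183). All 3 edited pools lay above all 3 controls. FASN showed how far the controls spread, with 26.9, 40.2 and 40.8 FPKM in bulk Z18 CRISPR against 44.6, 10.4 and 117 FPKM in bulk control.

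In all, 5 members did not overlap between the bulk groups, where 32.2% of all genes tested did not. ACLY was higher, and ACAT2, PMVK, FDPS and FDFT1 were lower in bulk Z18 CRISPR, of which ACAT2 overlapped in TPM. The bulk result depended on which controls were used. Without bulk control 1, PMVK (log2FC -1.66), MVD (-1.34) and EBP (-0.75), a sterol isomerase gene, passed as lower, amid 1327 genes called of 11904 (11.1%). After quantile scaling 25 genes of the whole table were called higher and 48 lower, where the unscaled values gave 23 higher and 19 lower.

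Other gene lists also moved between the bulk groups. Among epithelial markers KRT8 (log2FC -1.89, adjusted p = 0.0292, limma) and KRT7 (-1.53, adjusted p = 0.0476, limma) were called lower, with sums of 414 to 539 FPKM in bulk Z18 CRISPR, against 715 to 1109 FPKM in bulk control. Of 16 cell cycle genes 14 had log2FC below 0 and 0 were called by limma (3 at an unadjusted p under 0.05), with sums of 617 to 917 FPKM in bulk Z18 CRISPR, against 1021 to 1083 FPKM in bulk control. The sums of fibroblast markers (7.59 to 9.06 FPKM in bulk Z18 CRISPR, against 2.61 to 3.36 FPKM in bulk control) and haematopoietic markers (159 to 174 FPKM in bulk Z18 CRISPR, against 38.7 to 84.4 FPKM in bulk control) did not overlap either. These sums rest on few genes, as 4 of 7 fibroblast and 4 of 6 haematopoietic markers were below 1 FPKM in every bulk library. Only 2 of each were tested, and 0 were called by limma. The part of all these lists in the lipid gene values was not tested.

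The clones asked whether the truncated allele acts beyond the loss of a copy, for which trunc/+ and -/+ were each compared with WT, sharing the same 2 WT libraries, and then with each other. In trunc/+ clones, the fatty acid genes FASN, ELOVL6 and ACACA had the lowest log2FC against WT, and STARD4, which carries cholesterol between membranes, the highest. With limma, 0 of 29 members were called and 1 of 12904 genes (0.00775%) was. At an unadjusted p under 0.05, 2 members were higher (STARD4 and SREBF1) and 2 were lower (FASN and ACACA), where 7.59% of all genes passed. Groups did not overlap for 8 members, against 26.0% of all genes. The median log2FC was -0.07 for the members and -0.02 over all genes, and that of the members turned to 0.07 without WT clone 2 and to 0.06 without trunc/+ clone 3. All 16 cell cycle genes had log2FC below 0, of which 0 were called by limma and 1 had an unadjusted p under 0.05, with sums of 988 to 1205 FPKM in trunc/+, against 1305 to 1342 FPKM in WT, and their part was not tested.

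STARD4 had 21.6, 17.0 and 16.3 FPKM in trunc/+, against 12.6 and 4.86 FPKM in WT (log2FC 1.10 ± 0.35 SE, adjusted p = 0.612). All trunc/+ clones lay above both WT clones, but the WT clones were themselves far apart. SREBF1 had 35.5, 29.4 and 32.2 FPKM in trunc/+, against 27.5 and 20.1 FPKM in WT (log2FC 0.44 ± 0.17 SE, adjusted p = 0.652). It too did not overlap between the groups. IDI1 had 28.3, 30.5 and 22.8 FPKM in trunc/+, against 7.81 and 32.1 FPKM in WT (log2FC 0.72 ± 0.60 SE, adjusted p = 0.785). Its difference came from WT clone 1, and without that clone its sign turned (-0.24).

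The lower genes were close in size. FASN, which builds palmitate, had 63.7, 57.5 and 54.7 FPKM in trunc/+, against 91.2 and 80.2 FPKM in WT (log2FC -0.54 ± 0.18 SE, adjusted p = 0.612). ELOVL6, which lengthens palmitate, had 7.14, 8.72 and 6.57 FPKM in trunc/+, against 10.3 and 9.11 FPKM in WT (log2FC -0.34 ± 0.16 SE, adjusted p = 0.658). ACACA, the acetyl-CoA carboxylase that commits carbon to fatty acids, had 12, 14 and 10.8 FPKM in trunc/+, against 15 and 16.2 FPKM in WT (log2FC -0.33 ± 0.14 SE, adjusted p = 0.656). For each of these 3 genes every trunc/+ clone lay below both WT clones. SCD, the other main enzyme at the end of this arm, did not share that order, with 149, 215 and 137 FPKM in trunc/+ against 116 and 166 FPKM in WT.

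In -/+ clones against WT, 22 of the 29 log2FC were below 0, with a median of -0.18 against -0.02 over all genes. With limma, 0 of 29 members were called, as against 1 gene of 12904 (0.00775%). At an unadjusted p under 0.05 only PMVK was lower, where 1.82% of all genes passed, and 7 members did not overlap, where 14.6% of all genes did not. These 7 were MVK, PMVK, MVD, FDPS, MSMO1 and ACACA, which were lower in -/+, and NSDHL, which was higher. Of the 7 genes of the mevalonate arm 4 lay below both WT clones, where 1089 of the 12904 genes tested did. All rest on the same 2 WT clones, and 0 genes of this arm were called by limma.

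PMVK had 36.7, 32.7 and 42.1 FPKM in -/+, against 50.9 and 47.0 FPKM in WT (log2FC -0.39 ± 0.15 SE, adjusted p = 1). MVD had 9.48, 6.70 and 9.19 FPKM in -/+, against 10.1 and 13.1 FPKM in WT (log2FC -0.42 ± 0.20 SE, adjusted p = 1). MSMO1, a sterol methyl oxidase gene, had 18.3, 15.4 and 14.7 FPKM in -/+, against 19.3 and 27.8 FPKM in WT (log2FC -0.50 ± 0.27 SE, adjusted p = 1). For all 3 genes every -/+ clone lay below both WT clones, though for MVD and MSMO1 the highest -/+ clone came close to WT clone 1. STARD4 had 16.0, 16.8 and 10.7 FPKM in -/+, against 12.6 and 4.86 FPKM in WT (log2FC 0.77 ± 0.35 SE, adjusted p = 1), which overlap. NSDHL, a sterol dehydrogenase gene, had 16.5, 20.9 and 16.9 FPKM in -/+, against 13.3 and 15.3 FPKM in WT (log2FC 0.31 ± 0.19 SE, adjusted p = 1). IDI1 had 25.6, 31.1 and 10.1 FPKM in -/+, against 7.81 and 32.1 FPKM in WT, each group holding both high and low clones (log2FC 0.31 ± 0.60 SE). Its sign turned without WT clone 1 (-0.65).

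Between trunc/+ and -/+ clones, which differ in the kind of Z18 allele, 21 of the 29 log2FC were above 0, with a median of 0.12 against 0.00 over all genes. With limma, no member and no gene of 12904 (0%) was called. At an unadjusted p under 0.05, MVD was higher and ELOVL6 lower, where 6.28% of all genes passed. Of the members, 3 did not overlap between the groups (MVD higher, ACACA and ELOVL6 lower), against 11.2% of all genes. All 16 cell cycle genes had log2FC below 0 here too, of which 0 were called by limma and 6 had an unadjusted p under 0.05, with sums of 988 to 1205 FPKM in trunc/+, against 1364 to 1492 FPKM in -/+, and their part was not tested.

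MVD had 14.1, 11.2 and 12.9 FPKM in trunc/+, against 9.48, 6.70 and 9.19 FPKM in -/+ (log2FC 0.54 ± 0.18 SE, adjusted p = 0.785). INSIG1, which retains SREBPs in the endoplasmic reticulum, had 54.8, 49.7 and 29.4 FPKM in trunc/+, against 43.0, 27.1 and 19.0 FPKM in -/+ (log2FC 0.60 ± 0.33 SE, adjusted p = 0.806). The INSIG1 ranges overlap, with trunc/+ clone 3 below -/+ clone 1. IDI1 differed by 0.41 ± 0.54 (SE) on the log2 scale, which rested on -/+ clone 3 and became -0.06 without it. ELOVL6 had 7.14, 8.72 and 6.57 FPKM in trunc/+, against 10.4, 10.9 and 9.40 FPKM in -/+ (log2FC -0.41 ± 0.14 SE, adjusted p = 0.785). FASN had 63.7, 57.5 and 54.7 FPKM in trunc/+, against 85.1, 79.3 and 58.3 FPKM in -/+ (log2FC -0.32 ± 0.16 SE, adjusted p = 0.801). ACACA had 12, 14 and 10.8 FPKM in trunc/+, against 14.3, 14.2 and 14.3 FPKM in -/+ (log2FC -0.21 ± 0.13 SE, adjusted p = 0.832). Thus ELOVL6 lay lower in every trunc/+ clone than in every -/+ clone, and ACACA did so in FPKM but not in TPM.

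**Figure D2:**
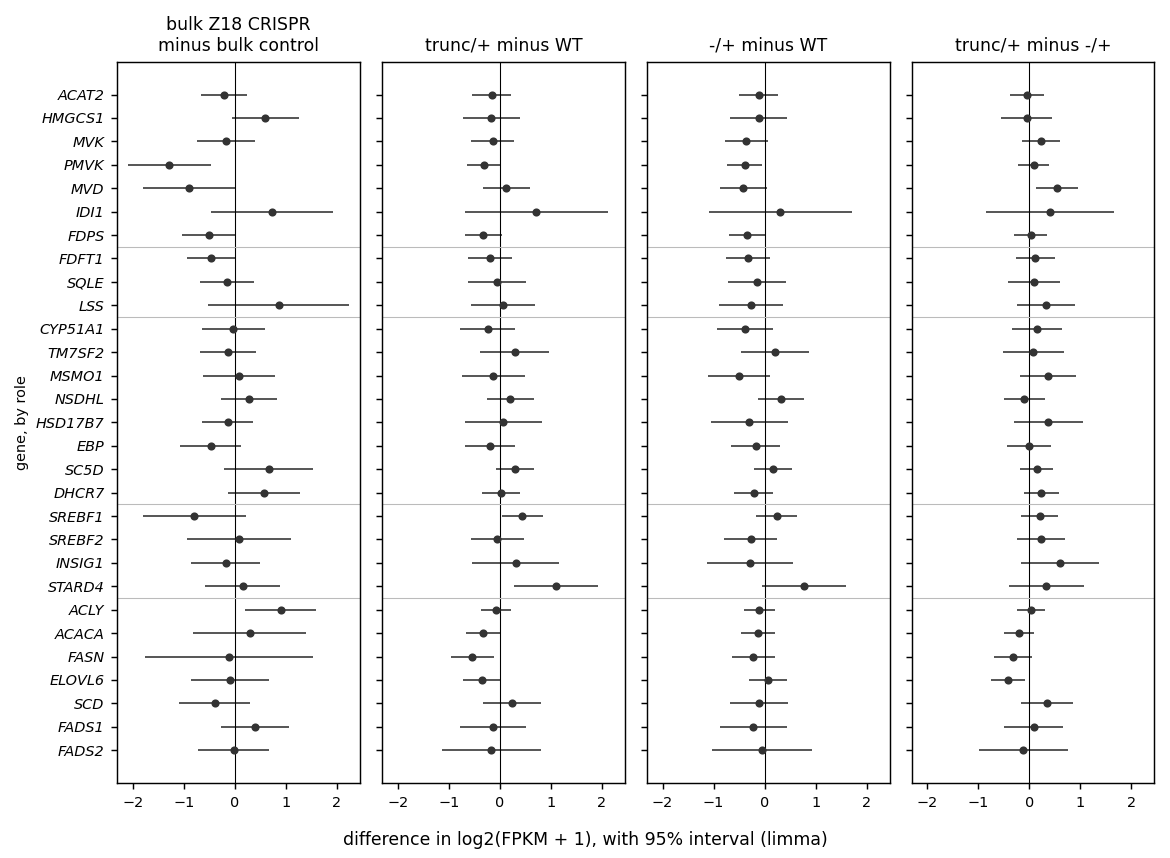
Difference in log2(FPKM + 1) of 29 lipid synthesis genes (rows, by role) in 4 comparisons of Z18 genotypes (panels); points are limma estimates and bars their 95% intervals. No gene passed an adjusted p of 0.05. The median SE of the members is highest in the bulk panel (0.30, against 0.21, 0.21 and 0.19), where FASN has the widest interval (-1.77 to 1.53). Some genes have wider intervals among the clones, such as IDI1 (-0.68 to 2.12 in trunc/+ against WT, and -0.47 to 1.92 in bulk).

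The intervals say what size of change these libraries could have missed. For SREBF2, the regulator of the sterol arm, the 95% interval of the log2FC ran from -0.95 to 1.09 in bulk, from -0.58 to 0.47 in trunc/+ against WT and from -0.80 to 0.25 in -/+ against WT. For DHCR7, the reductase of the last step to cholesterol, it ran from -0.15 to 1.27 in bulk, from -0.36 to 0.40 in trunc/+ against WT and from -0.60 to 0.16 in -/+ against WT. A doubling of DHCR7, a log2FC of 1, therefore lay outside both clone intervals but inside the bulk interval.

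The difference between bulk libraries and clones ran through the regulators and the fatty acid arm. With all 14 libraries in a single limma fit, the 15 lower members compare with 2863 lower genes of 13439, so 51.7% of the members against a background of 21.3%. The median log2FC of the members was -0.51, against -0.08 over all genes. Bulk libraries and clones did not overlap for 7 members, all lower in bulk, where 7.63% of all genes tested were lower without overlap. Selection, time in culture, cloning and any difference in handling or sequencing go with the same split and cannot be told apart from it.

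All 4 genes of regulation and transport were lower in bulk. INSIG1 had 8.70 to 18.6 FPKM (median 10.9) in the bulk libraries, against 19.0 to 54.8 FPKM (median 34.8) in the clones (log2FC -1.47 ± 0.22 SE, adjusted p = 0.000565). STARD4 had 2.89 to 7.47 FPKM (median 4.75) in the bulk libraries, against 4.86 to 21.6 FPKM (median 16.1) in the clones (log2FC -1.23 ± 0.22 SE, adjusted p = 0.00170). INSIG1 did not overlap, and STARD4 overlapped only through bulk libraries above WT clone 2. SREBF2 had 6.91 to 29.4 FPKM (median 14.2) in the bulk libraries, against 23.3 to 38.4 FPKM (median 33.7) in the clones (log2FC -1.07 ± 0.25 SE, adjusted p = 0.00582). SREBF1 had 10.4 to 44.8 FPKM (median 12.9) in the bulk libraries, against 20.1 to 35.5 FPKM (median 28.5) in the clones (log2FC -0.80 ± 0.24 SE, adjusted p = 0.0200). For SREBF2 only bulk control 3 reached into the clone range, and for SREBF1 bulk control 3 lay above every clone.

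In the fatty acid arm 5 of 7 genes were called and all 7 estimates were below 0. SCD, which puts the double bond into stearate, had 36.3 to 79.0 FPKM (median 48.7) in the bulk libraries, against 112 to 215 FPKM (median 143) in the clones (log2FC -1.48 ± 0.18 SE, adjusted p = 0.000246). ELOVL6 had 2.15 to 5.95 FPKM (median 4.06) in the bulk libraries, against 6.57 to 10.9 FPKM (median 9.25) in the clones (log2FC -1.03 ± 0.18 SE, adjusted p = 0.00130). ACACA had 1.99 to 10.2 FPKM (median 8.29) in the bulk libraries, against 10.8 to 16.2 FPKM (median 14.2) in the clones (log2FC -0.98 ± 0.25 SE, adjusted p = 0.00997). In these 3 genes every bulk library lay below every clone. FADS1, a desaturase of polyunsaturated fatty acids, was lower by a log2FC of -0.82 ± 0.19 (SE), and ACLY by -0.48 ± 0.16 (SE). FADS1 and FADS2 share 801 bases on opposite strands of chromosome 11, where stranded reads are needed to keep them apart. The libraries were stranded per the study's methods, and whether the gene values used the strand was not found. FASN gave -0.94 ± 0.39 (SE, adjusted p = 0.0732) and FADS2 -0.57 ± 0.24 (SE, adjusted p = 0.0764), neither past the threshold.

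In the sterol chain the calls were fewer and the directions mixed. In the mevalonate arm, 2 of 7 genes were lower. HMGCS1, which condenses acetoacetyl-CoA with acetyl-CoA, had 3.55 to 9.50 FPKM (median 7.31) in the bulk libraries, against 9.80 to 16.8 FPKM (median 13.4) in the clones (log2FC -0.96 ± 0.17 SE, adjusted p = 0.00157). ACAT2 was lower by -0.43 ± 0.11 (SE). PMVK (0.41 ± 0.19) and MVD (0.46 ± 0.22, both SE) had estimates above 0 that did not pass. Of the 3 genes from squalene to lanosterol only FDFT1 was called, at -0.56 ± 0.12 (SE). After lanosterol, 3 of 8 were lower. DHCR7 had 6.68 to 18.3 FPKM (median 15.4) in the bulk libraries, against 22.3 to 33.4 FPKM (median 28.5) in the clones (log2FC -1.0 ± 0.16 SE, adjusted p = 0.000987). HSD17B7, a sterol ketone reductase gene, had 7.03 to 9.23 FPKM (median 7.76) in the bulk libraries, against 9.63 to 25.9 FPKM (median 14.9) in the clones (log2FC -0.86 ± 0.17 SE, adjusted p = 0.00268). HSD17B7 and FDPS have pseudogene copies of similar sequence, so their levels are uncertain to the extent that reads were shared. The third was CYP51A1, which takes a methyl group from lanosterol, at -0.51 ± 0.16 (SE). EBP, at 0.41 ± 0.15 (SE, adjusted p = 0.0554), had the highest estimate of the rest of that stretch.

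**Figure D3:**
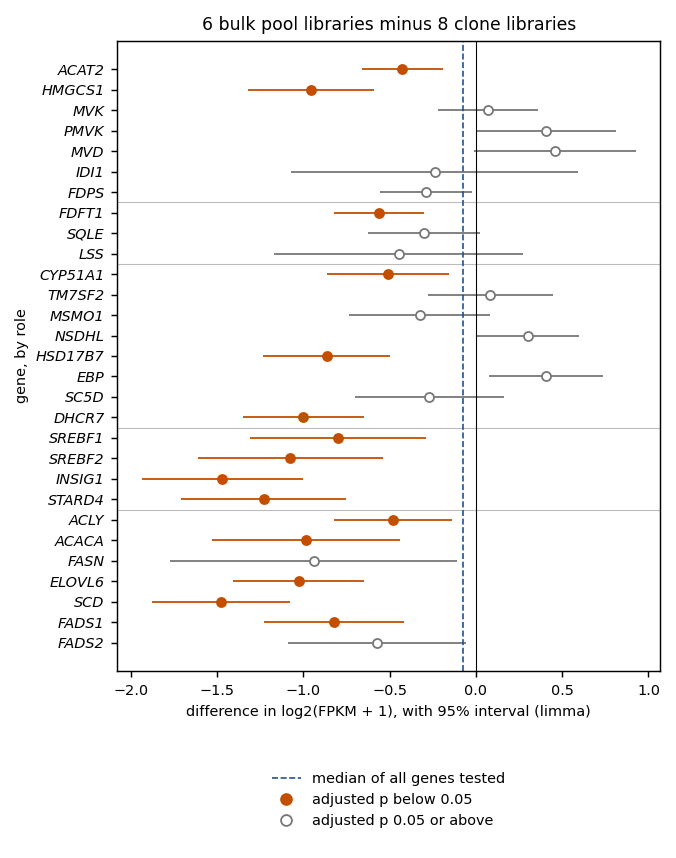
Difference in log2(FPKM + 1) between 6 bulk libraries and 8 clone libraries for 29 lipid synthesis genes (rows, by role), with 95% intervals from limma; filled points passed an adjusted p of 0.05. All 15 filled points lie below 0, down to -1.48 for SCD, and the dashed line marks the median over all genes tested (-0.08).

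**Figure D4:**
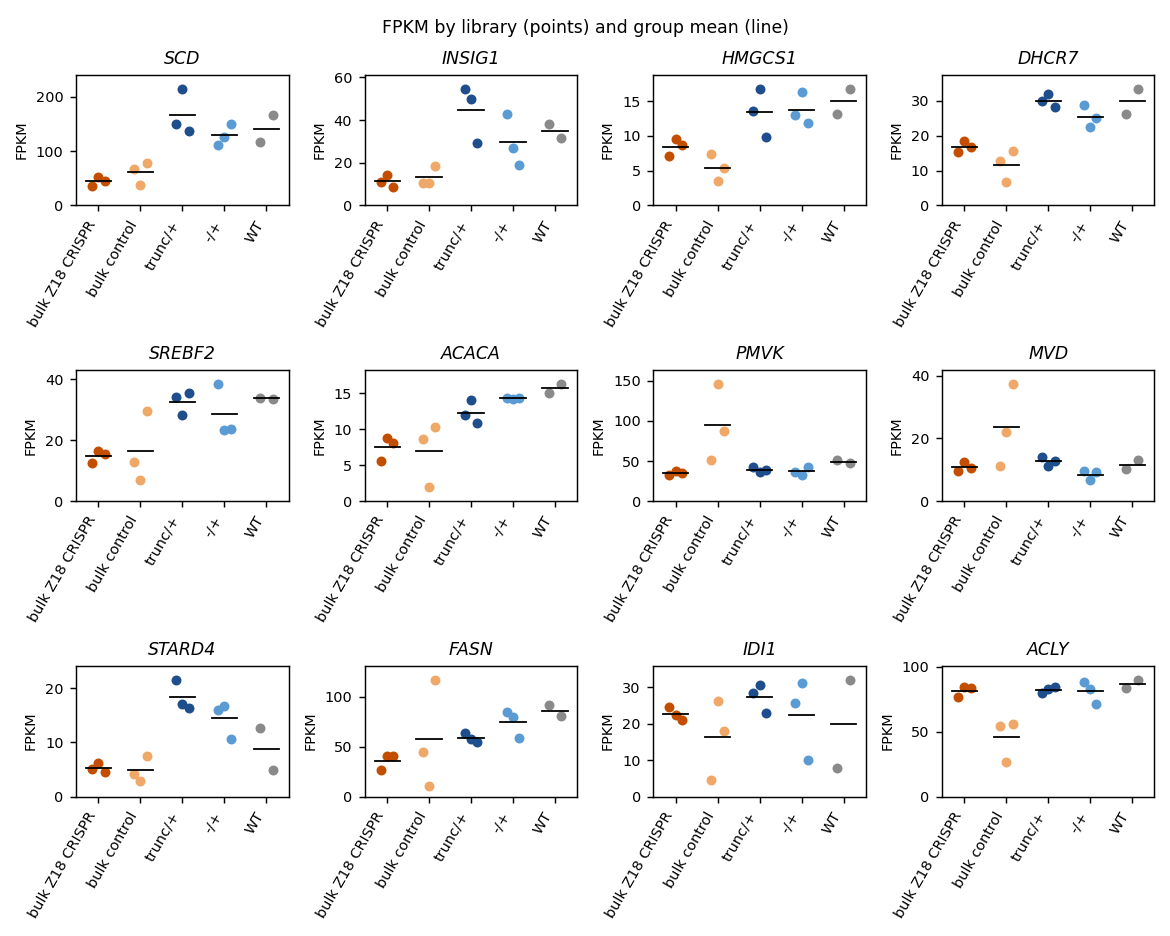
FPKM of 12 members in each library (points) with the group mean (line), by group. SCD, INSIG1, HMGCS1, DHCR7 and ACACA are lower in every bulk library than in every clone, while PMVK, MVD, FASN and IDI1 vary widely within bulk control.

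Most of the calls did not need the variable controls. In the fit without bulk controls 2 and 3, 17 members were lower and 1 was higher. Of the 13302 genes tested there, 12.7% were lower and 1874 were higher. With the 3 bulk Z18 CRISPR libraries as the only bulk group, 16 members were lower and 1 was higher (NSDHL in both fits). Of 13242 genes, 15.1% were lower and 2166 were higher. With the 3 bulk controls as the only bulk group, 11 members were lower and 3 were higher (PMVK, MVD and EBP). Of 13262 genes, 18.4% were lower and 1311 were higher, so the 3 higher members lie near the share of all genes. HMGCS1, HSD17B7, DHCR7, SREBF2, INSIG1, STARD4, ACACA, ELOVL6 and SCD, 9 genes in all, were called lower in every one of the 23 fits tried, with libraries left out or values rescaled. Leaving out 1 library gave 13 to 18 lower members, where 15.7% to 26.0% of all genes were lower. The call of ACLY rested on the controls, as its log2FC was -0.03 with bulk Z18 CRISPR as the only bulk group. With bulk control as the only bulk group, SREBF1 (-0.40), ACAT2 (-0.32), FDFT1 (-0.32) and CYP51A1 (-0.50) lost their calls. FADS1 lost its call without bulk controls 2 and 3 (-0.51), and CYP51A1 was called in 15 of the 23 fits. With TPM, 16 members were lower, against 26.0% of all genes, as the genes called split into 1151 higher and 3489 lower, where FPKM gave 1948 and 2863. Between unedited libraries alone, bulk control against WT, 7 members were lower (HMGCS1, DHCR7, INSIG1, ACLY, ELOVL6, SCD and FADS1) and 0 higher. Of 13439 genes, 9.72% were lower and 709 were higher. An interaction set bulk Z18 CRISPR minus bulk control against the mean of trunc/+ and -/+ minus WT, with 0 members called and 0.0521% of all genes called. The edits differ in kind between bulk cells and clones, so the interaction cannot tell genotype from the way the cells were made. At an unadjusted p under 0.05, which 9.59% of all genes passed, ACLY (0.99 ± 0.34) was above 0, and PMVK (-0.93 ± 0.40) and SREBF1 (-1.14 ± 0.50, all SE) were below 0.

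Summed over genes, the regulators together with STARD4 held 76.4, 98.6 and 89.6 TPM in bulk Z18 CRISPR, against 88.6, 49.9 and 223 TPM in bulk control. The 8 clones ranged from 186 to 330 TPM, so only bulk control 3 reached their range. The fatty acid genes held 379, 496 and 471 TPM in bulk Z18 CRISPR, against 467, 165 and 663 TPM in bulk control, and 749 to 1053 TPM in the clones, with no overlap between bulk libraries and clones. The mevalonate arm held 409 to 440 TPM in bulk Z18 CRISPR, against 429 to 781 TPM in bulk control, and 521 to 762 TPM in the clones, which the bulk controls overlapped.

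**Figure D5:**
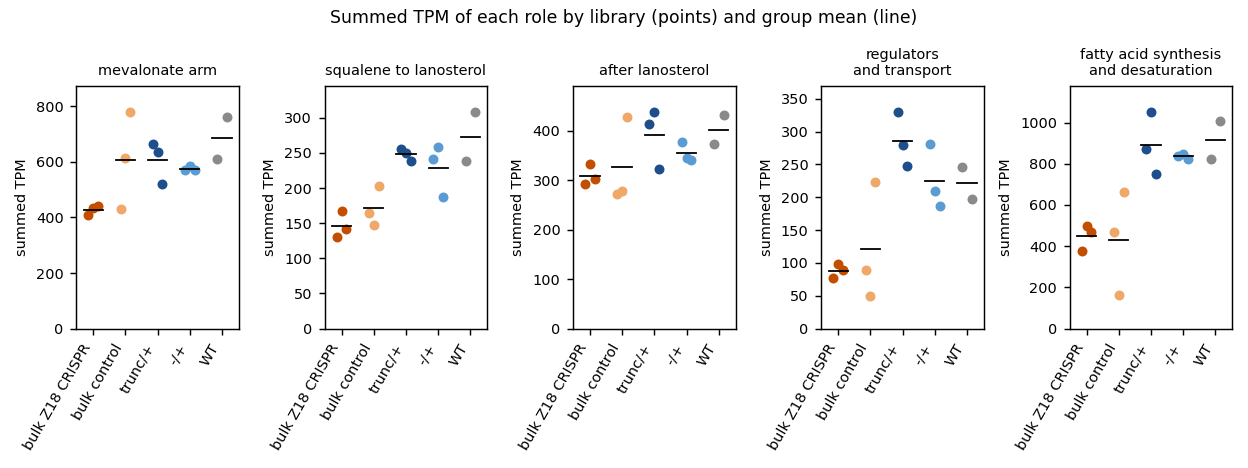
Summed TPM of the members of each role (panels) in every library (points) with the group mean (line). The fatty acid genes separate bulk libraries (at most 663 TPM) from clones (at least 749 TPM), whereas the mevalonate arm overlaps.

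A second list of 45 genes from the same metabolism, such as fatty acid activation, further sterol steps and lipid uptake, of which 43 passed the filter, was followed alongside. In bulk libraries against clones, 17 of the 43 were lower, where 21.3% of all genes were. Of the 43, 1 was higher, where 1948 of 13439 genes were. The median log2FC was -0.22, against -0.08 over all genes. ACSL3, which activates fatty acids, was lower by -1.55 ± 0.26 (SE). ACSS2 (-1.27 ± 0.30), which makes acetyl-CoA from acetate, and the lipoprotein receptor gene LRP8 (-1.24 ± 0.26) fell likewise. Also lower were ACSL4, LBR, MBTPS2, MYLIP, DGAT2, ELOVL5, GGPS1, TECR, ABCA1, TMEM97, LPIN1, PGD and HSD17B12, while AGPAT2, which acylates lysophosphatidic acid, was higher (0.58 ± 0.12 SE).

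In the 4 comparisons of Z18 genotypes none of this second list passed. In bulk Z18 CRISPR against bulk control, 41 of its genes were tested. Of these, 31 estimates were above 0, where 7842 of all 12114 genes tested were. The median log2FC of the list was 0.22, against 0.18 over all genes. ACSL1, which activates fatty acids, was near the upper end at 1.17 ± 0.26 (SE, adjusted p = 0.112), and the lowest were NR1H3, a sterol-sensing nuclear receptor gene, at -1.03 ± 0.24 (SE) and COQ2 at -0.72 ± 0.28 (SE). In trunc/+ against WT the ends of the list were NPC2 (1.05 ± 0.34) and SCD5 (0.66 ± 0.30) above 0, and MID1IP1 (-0.40 ± 0.29) and GPAM (-0.39 ± 0.20, all SE) below 0. In -/+ against WT they were ABCA1 (0.53 ± 0.27) and NPC2 (0.25 ± 0.34), and ME1 (-0.30 ± 0.31) and PGD (-0.29 ± 0.14, all SE). In trunc/+ against -/+ they were NPC2 (0.80 ± 0.31) and SCD5 (0.52 ± 0.27), and COQ2 (-0.53 ± 0.23) and MID1IP1 (-0.26 ± 0.26, all SE).

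The same lists moved with the split between bulk libraries and clones. Of 16 cell cycle genes, 9 were lower in bulk, where 21.3% of all genes were, and none was higher, with a summed level of 617 to 1083 FPKM in the bulk libraries, against 988 to 1492 FPKM in the clones. Among 10 melanocyte lineage markers 4 were below 1 FPKM in every library. Of the 6 tested, SOX10, S100B and S100A1 were lower in bulk, and 2 others had log2FC above 0 (at most 0.27) without a call. The summed level was 25.2 to 52.7 FPKM in the bulk libraries, against 76.9 to 484 FPKM in the clones. Of 6 epithelial markers EPCAM, CDH1 and KRT19 were below 1 FPKM throughout, while KRT8, KRT18 and KRT7 were higher in bulk, with sums of 414 to 1109 FPKM in the bulk libraries, against 176 to 698 FPKM in the clones. Of 7 fibroblast markers 3 were tested, of which PDGFRB was lower in bulk and 1 had a log2FC above 0 (0.39) without a call. Their sums were 2.61 to 9.06 FPKM in the bulk libraries, against 2.54 to 11 FPKM in the clones. Of 6 haematopoietic markers PTPRC, CD3E and CD14 were below 1 FPKM in every library, and CD74, an antigen presentation gene, was lower in bulk, with sums of 38.7 to 174 FPKM in the bulk libraries, against 207 to 1438 FPKM in the clones. The part of these lists in the lipid gene differences was not tested.

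Since SCD, HMGCS1, DHCR7 and SREBF2 were lower in bulk together, the 250 bases before their start sites are shown (RefSeq, GRCh38.p14, 5′ to 3′ on the strand of the gene), a choice made after their values were seen. SCD is at chr10:100346983-100347232 (plus strand), HMGCS1 at chr5:43313413-43313662 (minus strand), DHCR7 at chr11:71448394-71448643 (minus strand) and SREBF2 at chr22:41832855-41833104 (plus strand). Capitals mark CCAAT, the box read by NF-Y, on either strand (ATTGG when on the other), and TCACNCCAC, the core of the sterol regulatory element.
SCD: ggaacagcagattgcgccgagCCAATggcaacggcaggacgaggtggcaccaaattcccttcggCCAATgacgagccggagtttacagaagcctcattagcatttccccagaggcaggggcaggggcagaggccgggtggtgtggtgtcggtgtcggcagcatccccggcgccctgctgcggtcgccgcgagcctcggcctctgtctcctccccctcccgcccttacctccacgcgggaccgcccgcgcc
HMGCS1: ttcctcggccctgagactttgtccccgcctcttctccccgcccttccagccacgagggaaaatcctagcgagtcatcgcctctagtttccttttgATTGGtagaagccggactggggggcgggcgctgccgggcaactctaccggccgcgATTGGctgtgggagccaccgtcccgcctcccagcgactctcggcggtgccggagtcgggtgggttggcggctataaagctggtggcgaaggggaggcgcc
DHCR7: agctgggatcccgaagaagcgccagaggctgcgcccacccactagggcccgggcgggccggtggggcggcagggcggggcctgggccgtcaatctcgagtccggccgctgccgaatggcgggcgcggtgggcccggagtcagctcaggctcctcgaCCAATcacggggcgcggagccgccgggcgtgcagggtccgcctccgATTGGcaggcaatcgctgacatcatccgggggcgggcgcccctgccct
SREBF2: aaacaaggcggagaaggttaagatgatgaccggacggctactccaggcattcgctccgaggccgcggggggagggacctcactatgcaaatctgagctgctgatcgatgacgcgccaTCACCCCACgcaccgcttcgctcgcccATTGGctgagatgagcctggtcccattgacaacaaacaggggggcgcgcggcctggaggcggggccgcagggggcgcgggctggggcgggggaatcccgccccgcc

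SREBF2 holds both elements, with the sterol core beginning 133 bases and the ATTGG box 106 bases before the start. Each of the other 3 holds a pair of CCAAT boxes and no match to that core. Among the 25 members with a promoter entry, CCAAT on either strand was present in 17 within the 250 bases, where 32.0% of 35116 promoters held it. It was present in 8 of the 13 entries of genes that were lower in bulk and in 9 of the 12 entries of the others, so it did not separate them. The Sp1 box GGGCGG, on either strand, was in 23 of 25, where 42.6% of promoters held it, with 13 of 13 among the genes that were lower and 10 of 12 among the others. The E-box CACGTG was in 2 of 25 (6.34% of promoters) and TCACNCCAC in SREBF2 alone (0.883% of promoters). These windows are short and a match is a description of letters. In the printed runs none of the boxes in capitals overlaps another.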

How the data were processed

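Reads were trimmed with cutadapt 4.6, which the submitters' processing notes name, and per the study's methods SQuIRE was run on the reads, on hg38 per the processing notes. The gene tables have the column layout of StringTie, and the version used for these libraries was not found. The authors deposited FPKM and TPM per gene entry with per-base read coverage, a signal, and the deposited count of aligned fragments gave the depth of each library. FPKM hold no gene counts, so depth limits precision in a way that cannot be given per gene. Entries were summed per symbol (Python 3.11.15, pandas 2.3.3).

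The main test was limma 3.58.1 (trend, R 4.3.3) on log2(FPKM + 1), which understates changes of low genes. Genes needed 1 FPKM in 3 libraries (6 bulk libraries) or 2 libraries (8 clones, or all 14). P-values were adjusted by Benjamini-Hochberg over all genes tested, with a threshold of 0.05, and intervals are 95%. Groups came from the genotype labels. Bulk libraries against clones compared the mean of the 2 bulk group means with the mean of the 3 clone group means. All 29 members are named by role, and values per library are given for the 3 highest and 3 lowest log2FC of a comparison and for members called, with other lipid genes named if called or among the 2 highest and 2 lowest, except that some are not reported here by name. The members and lists were chosen with earlier results of these data known. The code of the fit was run on simulated data with the same spread for every gene, which says nothing of its power at the spread of the bulk controls. Alternatives were another pseudocount (0.1), no filter, quantile scaling, TPM, array weights, a replicate block, only the 2 groups compared and leaving out each library. No deposited column lacked a sample (0 columns).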

Additional observations from a re-analysis of the deposited data

How the results depend on the processing

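In the bulk comparison, the genes called over the whole table numbered 42, and 22 with TPM, 19 with array weights, 16 with no filter on low FPKM, 20 with a pseudocount of 0.1 and 73 after quantile scaling. Leaving out a library gave 4 to 1327 genes called and 0 to 3 members called, with 1327 and 3 without bulk control 1. The replicate numbers did not pair the bulk libraries (correlations of deviations -0.17, -0.22 and 0.18), and with a replicate block 220 genes and 1 member (PMVK, adjusted p = 0.0392) were called. In trunc/+ against WT and in -/+ against WT, the 1 gene called became 0 with TPM, with a pseudocount of 0.1, with only the 2 groups compared and with the replicate block, 2 with array weights and 3 with no filter, and leaving out a library gave 0 to 1. IDI1 had log2FC of -0.24 to 1.67 in trunc/+ against WT, -0.65 to 1.26 in -/+ against WT and -0.059 to 0.71 in trunc/+ against -/+ when a library was left out. The other named members of these 4 comparisons kept their sign under every alternative run, in 339 of 342 values over all named members. Leaving out a library gave a median log2FC of the members of -0.262 (without bulk control 2) to 0.0685 (without bulk control 3) in bulk, -0.154 (without WT clone 1) to 0.0693 (without WT clone 2) in trunc/+ against WT, and -0.305 (without WT clone 1) to -0.0730 (without WT clone 2) in -/+ against WT, so that its sign turned in the first 2, and the cause was not tested. In bulk libraries against clones, 15 members were lower, and 7 with unedited libraries only; the 15 genes kept their sign in all 330 values and their call in 308 of them. Low coverage of SC5D, LSS and FADS2 limits the precision of their single values.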

Other observations

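IDI1 was low in 3 libraries of 3 different groups, a pattern chosen after its values were seen. It had 4.58 FPKM in bulk control 1, 7.81 FPKM in WT clone 1 and 10.1 FPKM in -/+ clone 3, against 18 to 32.1 FPKM in the other 11 libraries. Of the genes near IDI1 on chromosome 10, GTPBP4 had 33.8 to 74.2 FPKM and WDR37 had 1.70 to 5.39 FPKM over the 14 libraries. MSMO1, further along the chain, was also lowest of its group in these 3 libraries (9.57, 19.3 and 14.7 FPKM). HMGCS1, at the start of the chain, was lowest of its group in WT clone 1 and -/+ clone 3 (13.1 and 11.8 FPKM) and highest of its group in bulk control 1 (7.46 FPKM).

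The FPKM of PMVK reached 146 in bulk control 2 and 87.5 in bulk control 3, above the 50.9 that was the highest of the 8 clones. MVD and EBP were high in the same 2 libraries (22.1 and 37.3 FPKM for MVD, 105 and 99.7 FPKM for EBP), while SC5D was low in them (3.44 and 1.28 FPKM, against 4.27 to 6.16 FPKM in the clones).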
